A study of Arabidopsis thaliana with 14 samples.

Results

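LBD16 (AT2G42430, probe set 265856_at) and LBD29 (AT3G58190, probe set 251565_at) are 2 of the 13286 Arabidopsis thaliana genes that the annotation table names for a single-gene probe set of the ATH1 array. They were chosen by name, with earlier results of these data known, so the ranks given for them below are descriptions. Each had 1 probe set. Their levels were followed on 14 arrays, in 7 groups of 2 biological replicates. The mutant slr-1, which fails to form lateral roots, was sampled after 0 h, 2 h and 6 h on 10 µM NAA. The wild type Col-0 was sampled at the same times and also after 6 h of mock treatment. All groups, the controls included, had germinated on 10 µM NPA for 3 days, and RNA came from root segments that exclude the meristem, pooled from about 1500 seedlings per time point.

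LBD proteins are plant-specific transcription factors with a conserved LOB domain. In the root, auxin triggers the degradation of Aux/IAA repressors, which frees the activators ARF7 and ARF19, and LBD16 and LBD29 are known targets of these ARFs. LBD16 is known to act in the founder cells of the pericycle before their asymmetric division, and LBD29 in the division and emergence of the new primordium. The slr-1 mutation stabilises the repressor SLR/IAA14, so the mutant is a block upstream of both genes. NPA stops auxin transport, and the synthetic auxin NAA enters cells without carriers, so that lateral root initiation starts in many pericycle cells together.

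Several points bear on every value. IAA14 (AT4G14550) itself had no probe set named for it, so its level was not analysed here. The mock arrays used here were of Col-0 at 6 h, so for slr-1, and for Col-0 at 2 h, NAA and time after transfer cannot be told apart. The description field of both mock samples names an animal tissue, while their titles and source names give the root segment. In RNA from pooled segments, fewer responding cells and less transcript per cell cannot be told apart. Of the root and shoot marker genes listed for a check of the tissue, 1 of 17 root genes, EXPA7, and 1 of 6 shoot genes, RCA, had a named probe set, and none of 3 meristem genes had one. EXPA7, a root hair expansin, ran from 26.2 to 96.5 signal units on the 6 slr-1 arrays, against 54.5 to 547.3 on the 8 Col-0 arrays. RCA, the Rubisco activase of green tissue, ran from 2250.4 to 3168.5 in slr-1, against 2849.9 to 8613.6 in Col-0. Within Col-0, RCA had 2849.9 and 3841.4 after 6 h of NAA, 6736.0 and 6868.0 after mock, and 8204.1 and 8613.6 at 0 h, so its 6 h NAA arrays were the lowest of these 6 where those of both LBD genes were the highest. The part of these markers in the results was not tested. The maximum signal was 29349.7 on slr-1 6 h NAA replicate 2 and 58837.1 to 124830.4 on the others.

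In slr-1, LBD16 had signals of 975.9 and 710.4 at 0 h, 1810.9 and 1745.9 after 2 h of NAA, and 980.0 and 1287.9 after 6 h (replicates 1 and 2 throughout). In Col-0 it had 588.9 and 632.4 at 0 h, 6263.3 and 5485.2 after 2 h, and 8483.8 and 7374.9 after 6 h. The Col-0 mock arrays had 480.4 and 463.9. All Col-0 arrays with NAA thus lay above all slr-1 arrays. The 2 h arrays of slr-1 were the highest of the mutant, and its 6 h arrays lay just above its 0 h arrays, by 4.1 signal units at the closest.

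LBD29 had 317.3 and 317.8 in slr-1 at 0 h, 2583.2 and 3486.1 after 2 h of NAA, and 2323.2 and 2192.6 after 6 h. In Col-0 it had 112.2 and 91.2 at 0 h, 10341.8 and 8654.8 after 2 h, and 13989.8 and 11781.0 after 6 h. The Col-0 mock arrays had 168.9 and 32.2, on either side of the 0 h arrays. Thus LBD29 was low without NAA in both genotypes, higher in slr-1 than in Col-0 at 0 h, and higher in Col-0 than in slr-1 with NAA. The spread between the mock replicates of LBD29 was the widest of its 7 groups relative to the mean (mean 100.6, SD 96.7).

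**Figure D1:**
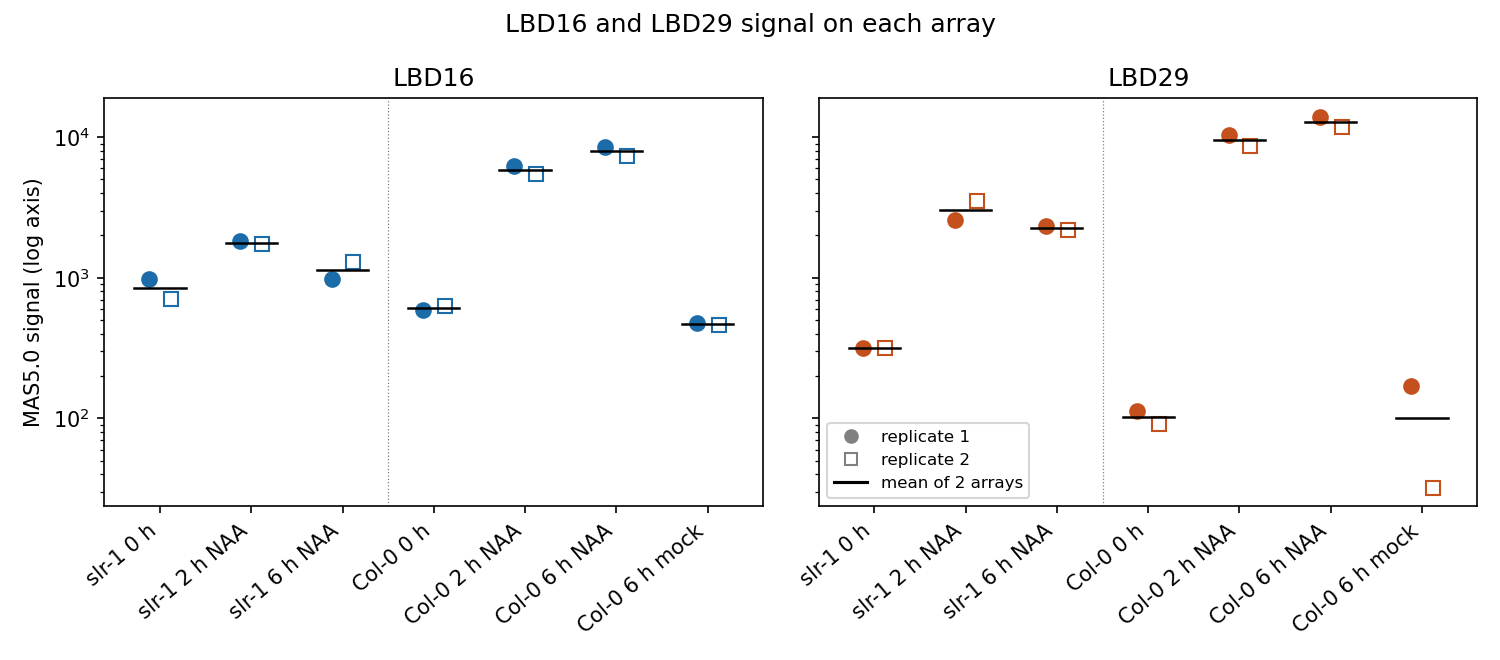
Signal of LBD16 (left) and LBD29 (right) on each of the 14 arrays, on a logarithmic axis of MAS5.0 signal units. Filled circles are replicate 1, open squares replicate 2 and black lines the mean of 2 arrays. LBD16 in slr-1 stayed between 710.4 and 1810.9 and reached 8483.8 in Col-0; the LBD29 mock arrays differ from each other, at 168.9 and 32.2.

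Changes below are differences of log2(signal + 18.9), each with its standard error (SE) from a limma fit over 14882 tested probe sets. Benjamini-Hochberg adjustment ran over all of these probe sets, and a change is said to have passed where the adjusted p was under 0.05. No permutation test was run, because with 2 arrays against 2 its smallest exact p is 0.333.

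The comparison of Col-0 after 2 h of NAA with 0 h asked for the early auxin response. Both genes rose, as did 9.75% of the tested probe sets. LBD16 averaged 5874 ± 550.2 signal units after 2 h and 611 ± 30.8 at 0 h (SD, n = 2 each), a log2 change of 3.22 (SE 0.17, limma adjusted p = 6.44e-08). LBD29 averaged 9498 ± 1193 after 2 h and 102 ± 14.8 at 0 h (SD, n = 2 each), a log2 change of 6.30 (SE 0.40, limma adjusted p = 2.55e-07). Both LBD29 arrays at 0 h lay under 218.1, the pooled 40th percentile used as the filter on low signals, and detection calls were not used. The size of its change is therefore less certain than its direction, and ran from 6.09 with the added value doubled to 6.53 with 1 signal unit added. With that limit, LBD29 ranked 6th and LBD16 56th of the 14882 probe sets by size of rise. By the fit's p, LBD16 ranked 12th and LBD29 24th.

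On the log2 scale, most of the Col-0 response was present by 2 h. After 6 h both genes were again higher than at 0 h, as were 22.3% of the tested probe sets. The 6 h change was 3.66 for LBD16 (limma adjusted p = 4.24e-09) and 6.74 for LBD29 (limma adjusted p = 2.39e-08). In mean signal, LBD16 had 5874 at 2 h and 7929 at 6 h, and LBD29 had 9498 and 12885. On the log2 scale, the 2 h change was 88.2% of the 6 h change for LBD16 and 93.5% for LBD29. Over the 3316 probe sets that were higher at 6 h, the median of this share was 35.1%, and 88.9% of them had a lower share than LBD16. Because this share uses the contrast that picked those probe sets, it is a description.

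From 2 h to 6 h in Col-0 neither difference passed. The arrays of both genes did not overlap, which with 2 arrays against 2 is weak evidence. The share of all probe sets without overlap is not given here. The LBD16 difference was 0.43 (SE 0.17, unadjusted 95% interval 0.06 to 0.81, limma adjusted p = 0.074) and that of LBD29 0.44 (SE 0.40, limma adjusted p = 0.429). In a fit to these groups alone both passed, at limma adjusted p = 0.028 for LBD16 and 0.0352 for LBD29. LBD16 also passed without slr-1 0 h replicate 1 (adjusted p = 0.0415) or replicate 2 (0.0412), within a range of 0.0412 to 0.329 over the arrays left out in turn. In this comparison 15.5% of the tested probe sets were higher.

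The mock arrays addressed the transfer itself. After 6 h, NAA against mock gave 4.01 for LBD16 (SE 0.17, limma adjusted p = 2.88e-09) and 7.04 for LBD29 (SE 0.40, limma adjusted p = 2.03e-08), where 20.6% of the tested probe sets were higher. LBD29 ranked 6th and LBD16 84th by size of rise, with both LBD29 mock arrays also under 218.1. The LBD29 difference was 7.98 without mock replicate 1 and 6.10 without mock replicate 2, so the size of this change rests on which mock array is used.

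The difference of mock from 0 h was -0.36 for LBD16 (95% interval -0.73 to 0.02, limma adjusted p = 0.285) and -0.29 for LBD29 (95% interval -1.15 to 0.57, limma adjusted p = 0.749). Neither passed, in a comparison where 5.08% of the tested probe sets did. Both LBD16 mock arrays lay below both 0 h arrays, which with 2 arrays against 2 is weak evidence, and the LBD29 arrays overlapped. Without mock replicate 1 the LBD29 difference was -1.23 (limma adjusted p = 0.0115), and without mock replicate 2 it was 0.64 (limma adjusted p = 0.124).

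In slr-1 the question was what remained of the response. Both genes rose within 2 h, as did 6.86% of the tested probe sets, and LBD29 alone of the pair passed at 6 h. LBD16 averaged 1778 ± 46.0 after 2 h and 843 ± 188 at 0 h (SD, n = 2 each), a log2 change of 1.08 (SE 0.17, limma adjusted p = 0.00114). LBD29 averaged 3035 ± 638 after 2 h and 317.6 ± 0.354 at 0 h (SD, n = 2 each), a log2 change of 3.17 (SE 0.40, limma adjusted p = 1.84e-04). LBD29 ranked 29th by size of rise in slr-1, and LBD16 610th.

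After 6 h in slr-1, LBD29 averaged 2258 ± 92.3 (SD, n = 2), a change of 2.76 against 0 h (SE 0.40, limma adjusted p = 6.66e-04), and again ranked 29th. LBD16 averaged 1134 ± 218 (SD, n = 2), a difference of 0.42 (SE 0.17, 95% interval 0.05 to 0.80, limma adjusted p = 0.126), where 7.96% of the tested probe sets were higher. It passed without slr-1 0 h replicate 1 (0.65, adjusted p = 0.0374), and the difference was 0.20 without slr-1 0 h replicate 2 (adjusted p = 0.54). That LBD29 passed and LBD16 did not is no test of a difference between them.

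At 6 h both means in slr-1 were lower than at 2 h, where both Col-0 means were higher; this contrast between the genotypes was not tested. LBD16 differed by -0.65 (SE 0.17, 95% interval -1.03 to -0.28, limma adjusted p = 0.096), and LBD29 by -0.41 (SE 0.40, 95% interval -1.27 to 0.45, limma adjusted p = 0.677). Neither passed, and 1.22% of the tested probe sets did. The arrays of the 2 times did not overlap for either gene, which is again weak evidence with 2 arrays against 2. LBD16 ranked 355th by p in this comparison, with an unadjusted p of 0.00229.

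Before NAA, LBD29 was higher in slr-1 than in Col-0, and 6.63% of the tested probe sets were higher there. It averaged 317.6 ± 0.354 in slr-1 and 102 ± 14.8 in Col-0 (SD, n = 2 each), a log2 difference of 1.49 (SE 0.40, limma adjusted p = 0.0267). This call ended without slr-1 0 h replicate 1 (adjusted p = 0.0687) or replicate 2 (0.104), and without Col-0 0 h replicate 1 (0.0721) or replicate 2 (0.141). Without mock replicate 1 or 2 the adjusted p was 2.26e-04 or 2.17e-04, and the SE was 0.18 or 0.17 in place of 0.40. LBD16 averaged 843 ± 188 in slr-1 and 611 ± 30.8 in Col-0 (SD, n = 2 each), and the difference of 0.44 did not pass (SE 0.17, limma adjusted p = 0.116).

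With NAA the order was turned, and both genes were lower in slr-1 than in Col-0. At 2 h, when 3.7% of the tested probe sets were lower in slr-1, LBD16 differed by -1.71 (SE 0.17, limma adjusted p = 1.06e-04) and LBD29 by -1.65 (SE 0.40, limma adjusted p = 0.0245). The LBD29 call at 2 h ended when any array of the compared groups was left out: the adjusted p was 0.155 and 0.0756 without slr-1 replicates 1 and 2, and 0.179 and 0.078 without Col-0 replicates 1 and 2. The SE of 0.40 for LBD29 is estimated over all 7 groups, the mock pair included. For comparisons that do not use mock, it was 0.18 without mock replicate 1 and 0.17 without mock replicate 2. At 6 h, when 15.1% were lower, LBD16 differed by -2.79 (SE 0.17, limma adjusted p = 1.89e-07) and LBD29 by -2.50 (SE 0.40, limma adjusted p = 3.56e-04). In mean signal, slr-1 had 30.3% of the Col-0 level of LBD16 at 2 h and 14.3% at 6 h. For LBD29 it had 31.9% at 2 h and 17.5% at 6 h. Relative to Col-0, the levels of the pair in slr-1 with NAA were thus close to each other at both times.

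**Figure D2:**
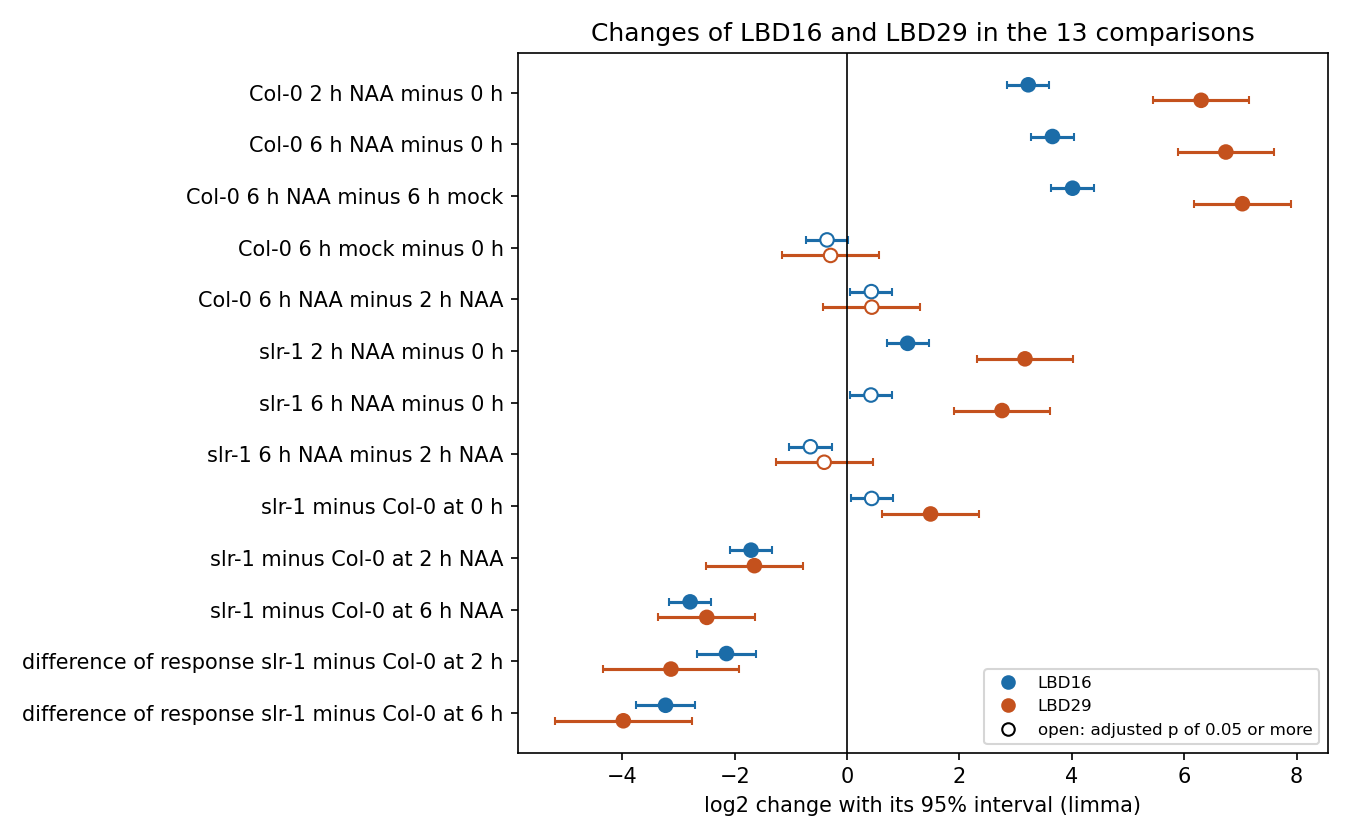
Log2 change of LBD16 and LBD29 in each of the 13 comparisons, with the 95% interval from the limma fit, which is not adjusted for the number of probe sets. Filled points have an adjusted p under 0.05. Rises with NAA in Col-0 run from 3.22 to 7.04, and the slr-1 responses minus the Col-0 responses run from -3.98 to -2.15.

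Whether the NAA response itself differed was tested as the slr-1 change minus the Col-0 change, and it did for both genes at both times. At 2 h it was -2.15 for LBD16 (SE 0.25, limma adjusted p = 7.34e-04) and -3.14 for LBD29 (SE 0.57, limma adjusted p = 0.00947), where 2% of the tested probe sets had a lower response in slr-1. The LBD29 call at 2 h ended without slr-1 2 h replicate 1 (-2.92, adjusted p = 0.0527), and leaving out other arrays gave adjusted p-values down to 1.91e-04. At 6 h it was -3.23 for LBD16 (SE 0.25, limma adjusted p = 3.43e-06) and -3.98 for LBD29 (SE 0.57, limma adjusted p = 2.2e-04), where 12.6% had a lower response. By p, LBD16 ranked 13th of all tested probe sets at 2 h and 19th at 6 h, and LBD29 ranked 127th and 466th. By size of the lower response the order was the reverse: LBD29 ranked 23rd at 2 h and 47th at 6 h, and LBD16 110th and 113th. The order of the pair thus depends on the measure, and the SE was larger for LBD29 (0.57) than for LBD16 (0.25).

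Of the Col-0 log2 change, slr-1 kept a larger share for LBD29 than for LBD16. LBD16 kept 33.4% at 2 h (26.5% to 40.3% over the arrays left out in turn) and 11.6% at 6 h (5.46% to 17.7%). The LBD16 share at 6 h was 17.7% without slr-1 0 h replicate 1 and 5.46% without replicate 2, and 16.9% and 6.29% without slr-1 6 h replicates 1 and 2. LBD29 kept 50.2% at 2 h (46.8% to 53.6%) and 40.9% at 6 h (40.2% to 41.7%). Ranges over the arrays left out in turn do not give the error of a share, and the difference between the genes was not tested. At 2 h, the median share was 36.3% over the 1451 probe sets higher in Col-0 and 47.9% of them lay below LBD16. At 6 h the median was 21.9% over 3316 probe sets, with 35.6% of them below LBD16 and 72.1% below LBD29. Neither gene thus stood outside the broad middle of that distribution, whose quartiles at 6 h were 2.87% and 43.8%.

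The share depends on the scale. In signal units, the rise of LBD16 in slr-1 was 17.8% of that in Col-0 at 2 h and 3.97% at 6 h. The rise of LBD29 was 28.9% at 2 h and 15.2% at 6 h. By construction, the difference of response is the difference between genotypes with NAA minus that at 0 h. For LBD29 at 2 h this is -1.65 minus 1.49, and for LBD16 it is -1.71 minus 0.44. The value of 1.49 has its Col-0 arrays under 218.1, and its call ended when any of the 4 arrays at 0 h was left out (adjusted p 0.0687 to 0.141), so these terms are given as values only.

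Rises of LBD29 were larger than those of LBD16 on the log2 scale wherever NAA was compared with its absence. The excess was 3.08 at 2 h and 3.09 at 6 h in Col-0, against 0 h, and 3.02 against mock. In slr-1 it was 2.09 at 2 h and 2.33 at 6 h. From 2 h to 6 h in Col-0 the pair changed by nearly the same amount, with an excess of 0.01. These excesses are descriptions without a test. LBD29 was the gene near the background without NAA in Col-0, so the added value lowers its rises there more than those of LBD16. In slr-1 at 0 h LBD29 averaged 317.6, above 218.1. In Col-0 at 2 h, the LBD29 rise was 6.09 with the added value doubled and 6.53 with 1 signal unit added. That of LBD16 was 3.19 and 3.26.

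In order of mean signal, both genes ran from Col-0 6 h NAA through Col-0 2 h NAA, slr-1 2 h NAA, slr-1 6 h NAA, slr-1 0 h and Col-0 0 h to Col-0 mock. For LBD16 the only neighbours in that order that passed the limma test against each other were slr-1 2 h NAA and Col-0 2 h NAA. For LBD29 that pair passed too, as did slr-1 6 h NAA against slr-1 0 h, and slr-1 0 h against Col-0 0 h.

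Of the genes listed for the same pathway, few had a named probe set. None of the 40 other LBD genes listed had one, so the pair could not be set beside LBD18 or other relatives. Of 19 genes of auxin perception and the ARF and Aux/IAA module, 3 Aux/IAA genes were tested. Aux/IAA proteins are the auxin-labile repressors of ARFs. All 3 rose in Col-0 at 2 h and at 6 h, with medians of 3.44 and 3.59, against -0.05 and -0.11 over all tested probe sets. Of all tested probe sets, 9.75% were higher at 2 h and 22.3% at 6 h. All 3 also rose in slr-1 at both times, with medians of 1.79 and 2.01, where 6.86% and 7.96% of the tested probe sets were higher. With mock none passed, in a comparison where 5.08% of all tested probe sets did, so this is no result about these genes. Single arrays mattered in slr-1: leaving out 1 array of the compared groups ended the IAA18 call in 3 cases (adjusted p 0.0503 to 0.101) and the IAA30 call in 6 (0.0627 to 0.172).

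IAA29 had 1144.7 and 1316.8 in slr-1 after 2 h of NAA, and 2009.6 and 1950.9 in Col-0. The slr-1 rise was 55.3% of the Col-0 rise at 2 h and 44.5% at 6 h. The difference of response passed at 2 h (-1.71, SE 0.39, limma adjusted p = 0.03) and at 6 h (-3.05, SE 0.39, limma adjusted p = 1.13e-04). The 2 h call ended without either Col-0 2 h array (0.0896 and 0.0963), either slr-1 2 h array (0.117 and 0.0562) or slr-1 0 h replicate 2 (0.0688), and with no variance trend (0.0682). IAA30 kept 52.0% at 2 h and 56.0% at 6 h, and its difference of response did not pass (limma adjusted p = 0.233 and 0.105), although at 6 h it passed without mock replicate 1 (0.0368) or 2 (0.0338) or slr-1 0 h replicate 1 (0.0448). IAA18 kept 60.3% and 48.3%, and its difference of response did not pass at 2 h (limma adjusted p = 0.334) but passed at 6 h (-0.86, limma adjusted p = 0.0189), though not without Col-0 6 h replicate 1 (0.0767), Col-0 0 h replicate 2 (0.0619) or slr-1 6 h replicate 2 (0.0554). With single arrays left out in turn, the share kept at 2 h ran from 47.8% to 65.6% for IAA29, from 37.1% to 66.9% for IAA30 and from 48.5% to 72.2% for IAA18. At 6 h it ran from 40.2% to 49.98% for IAA29, from 41.8% to 70.3% for IAA30 and from 46.1% to 50.8% for IAA18. The lowest values of IAA30 were those without slr-1 0 h replicate 1. For LBD29 the range at 6 h was 40.2% to 41.7%. Such ranges do not give the error of a share, so they do not place these genes above or below LBD29. Differences in share between these genes and LBD29 were not tested, so no order is given. The Col-0 arrays of IAA29 and IAA30 at 0 h also lay under 218.1.

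Of 20 genes of lateral root initiation and emergence, 2 had a named probe set. ACR4, a receptor kinase of formative divisions that the table names CR4, did not pass the filter on low signals. PUCHI, an AP2/ERF transcription factor of early primordia, was tested. Its change at 2 h in Col-0 was 47.6% of its change at 6 h, against the 88.2% of LBD16 and 93.5% of LBD29. PUCHI had 297.4 and 251.4 in slr-1 after 6 h of NAA, and 11380.8 and 9395.6 in Col-0. At 6 h it kept 9.32% of the change, close to LBD16 at 11.6%. At 2 h it kept 13.8%, against 33.4% for LBD16, and ran from -0.305% to 27.8% over the arrays left out in turn. The PUCHI difference from 0 h in slr-1 passed at neither time (limma adjusted p = 0.371 at 2 h and 0.178 at 6 h). Its 0 h arrays in both genotypes lay under 218.1.

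Pattern likeness was measured as the Pearson correlation of log2 signal over the 14 arrays, among 8084 tested probe sets with 1 gene. The arrays share 7 treatments, so many genes correlate with each other, and the coefficients are descriptions. LBD16 and LBD29 correlated at r = 0.927 (Spearman 0.969). Over these probe sets, 42 were more like LBD16 than LBD29 was, and 36 were more like LBD29 than LBD16 was.

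The 5 genes most like LBD16 were AT1G60010 (r = 0.980), AT3G25290 (0.979), SKU5 (0.978), AT5G09800 (0.975) and AT4G17350 (0.975). SKU5 is a GPI-anchored protein of directional root growth. The log2 differences of SKU5 from 0 h were 0.88 at 2 h and 0.23 at 6 h in slr-1, against 2.28 and 2.90 in Col-0, and so kept 38.6% (25.6% to 51.6% over the arrays left out) and 7.85% (1.26% without slr-1 0 h replicate 2, 14.4% without replicate 1). Over the 5 genes the kept share at 6 h ran from 7.85% to 31.6%. When Spearman correlation was used, 3 of these 5 remained in the top 5, and 4 remained when the 7 group means were used.

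The 5 genes most like LBD29 were AT5G14730 (r = 0.974), CLE44 (0.969), AT1G64405 (0.962), IAA29 (0.960) and AT1G77280 (0.959). CLE44 encodes a peptide of the CLE family that acts in vascular tissue. Its log2 differences from 0 h were 1.85 at 2 h and 1.81 at 6 h in slr-1, against 2.77 and 2.98 in Col-0, and so kept 66.7% and 60.8%. Over the 5 genes the kept share at 6 h ran from 10.2% to 60.8%, where the 10.2% of AT1G77280 was 0.506% without slr-1 0 h replicate 2 and 19.9% without replicate 1. Only 1 of the 5 remained in the top 5 with Spearman correlation, and 1 with the group means, so this list is less settled than that of LBD16. No gene was in both lists.

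**Figure D3:**
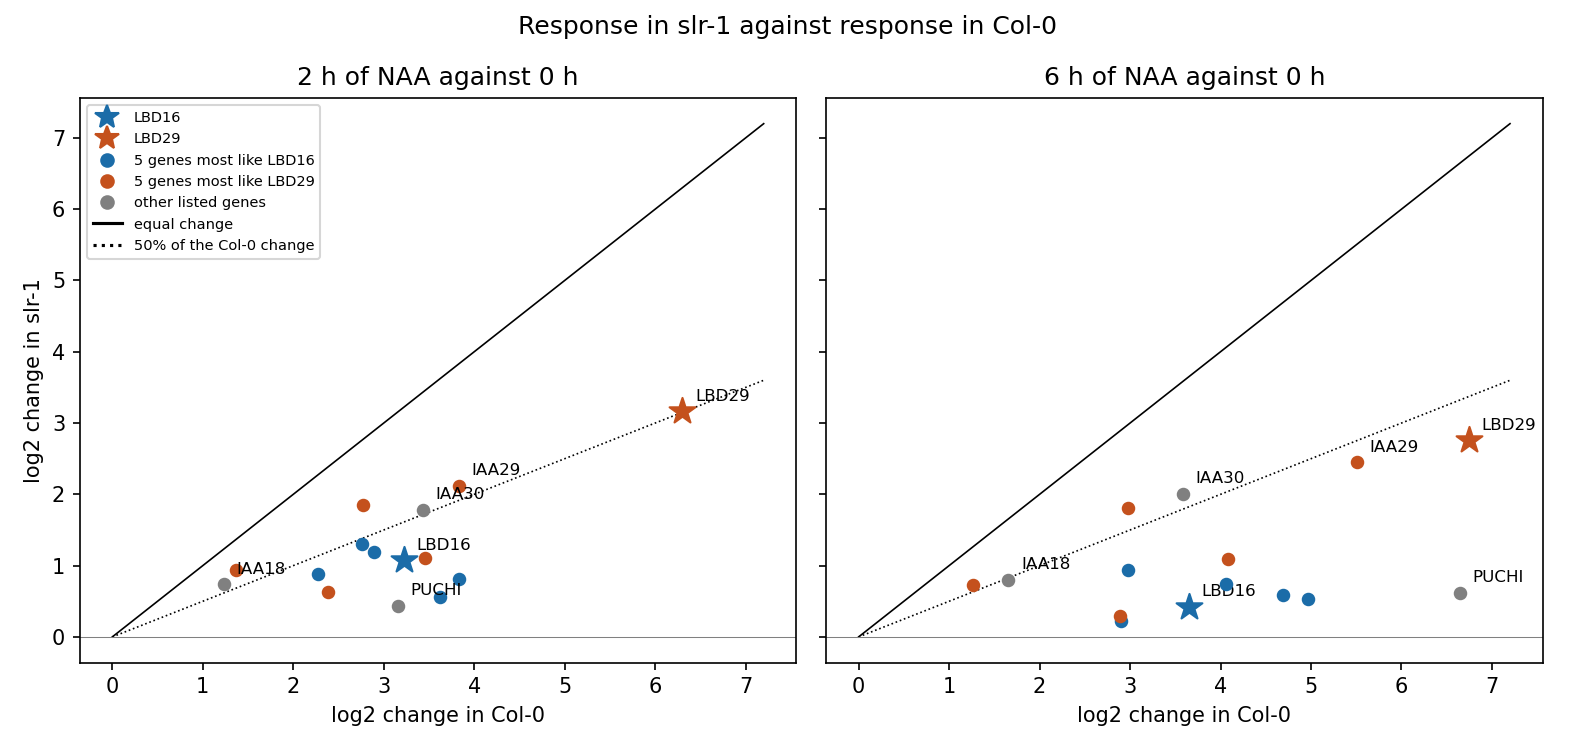
Log2 change in slr-1 (vertical) against that in Col-0 (horizontal) at 2 h (left) and 6 h (right) of NAA. Stars are LBD16 and LBD29, coloured dots the 5 genes most like each, and grey dots IAA18, IAA30 and PUCHI; IAA29 is among the genes most like LBD29. LBD29 lies near the dotted line of 50% at 2 h, at 50.2%, and LBD16 lies at 33.4% at 2 h and 11.6% at 6 h; no plotted gene reaches the solid line of equal change.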

How the data were processed

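The authors deposited 1 table of signal intensity values. The submitters' processing notes and the series' design text name MAS5.0 as the software, with its settings and target not given in the sources used here. The intensities are not logged, trimmed means (2% off each end) lay at 1000.1 on all arrays, and detection calls were not used here. RNA (5.8 µg per sample) was labelled as biotinylated cRNA, per the labels. The number of arrays limits the precision.

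Of 22810 probe sets, 64 controls were left out. Gene names came from the platform annotation, joined to RefSeq's TAIR10.1 table for locus names: 13513 probe sets had 1 gene, 503 several and 8730 none. Probe sets were tested if both arrays of at least 1 group exceeded the pooled 40th percentile (218.1), which left 14882, and 18.9, the pooled 10th percentile, was added before log2. Group means were fitted over all 14 arrays with limma 3.58.1 in R 4.3.3 (7 residual and 6.57 prior degrees of freedom, variance trend on mean signal), and was tested on simulated data. Alternatives were other added values, filters, quantile normalization, no trend, only the compared groups, a replicate block, and each array left out in turn. Named genes were the pair, the 5 most correlated with each, and the tested members of 3 lists. The members and lists were chosen with earlier results of these data known. No gene sequences were used here.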

Additional observations from a re-analysis of the deposited data

Results flagged for a closer look

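The response to NAA differed between slr-1 and Col-0 for both genes at both times, by the test of the difference itself (limma). As slr-1 minus Col-0, the difference was -2.15 for LBD16 at 2 h and -3.23 at 6 h. For LBD29 it was -3.14 at 2 h and -3.98 at 6 h. With 2 arrays per group, outlying arrays could not be tested within groups.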

How the results depend on the processing

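The rises of both genes in Col-0 at 2 h and 6 h and against mock, of LBD29 in slr-1 at both times and of LBD16 in slr-1 at 2 h, and the differences of response other than that of LBD29 at 2 h, kept direction and call in all 23 alternatives run for each. Without single arrays in turn, LBD16 ran from 0.33 to 0.53 in Col-0 6 h against 2 h and from 0.20 to 0.65 in slr-1 6 h against 0 h. LBD29 ran from -1.23 to 0.64 in mock against 0 h, from 1.36 to 1.61 in slr-1 against Col-0 at 0 h, from -1.87 to -1.44 at 2 h, and from -3.35 to -2.92 in the difference of response at 2 h. Fitted to the compared groups only, Col-0 6 h against 2 h passed for LBD16 (0.43) and LBD29 (0.44). With no variance trend, LBD29 in slr-1 against Col-0 did not pass at 0 h (1.49, adjusted p = 0.0615) or at 2 h (-1.65, adjusted p = 0.0644), and at 2 h it did not with 1 signal unit added (-1.66, adjusted p = 0.0668). PUCHI in slr-1 at 2 h, which had not passed, ran from -0.0096 to 0.88 without single arrays. The cause of these changes was not tested.

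Probe sets called fell most without single arrays: to 1394 of 2619 in Col-0 2 h against 0 h, 259 of 756 in mock against 0 h, 2971 of 4928 in Col-0 6 h against 2 h, 802 of 1832 and 1156 of 2116 in slr-1 at 2 h and 6 h, 31 of 181 in slr-1 6 h against 2 h, 863 of 1994, 298 of 950 and 2960 of 5144 between the genotypes at 0 h, 2 h and 6 h, and 157 (up to 848) of 473 in the difference of response at 2 h. With only the compared groups, 453 were called in mock, 1068 and 1367 in slr-1 at 2 h and 6 h, and 1205 between the genotypes at 0 h, and with no trend 481 in mock, 75 in slr-1 6 h against 2 h and 273 in the difference of response at 2 h. Samples share only replicate numbers (correlation of same-numbered deviations -0.16 to 0.13 over 21 pairs of groups). A replicate block changed no call of the pair, and gave 2564 calls in Col-0 2 h against 0 h, against 2619 without it.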
